A study of Mus musculus with 2 samples.

Results

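The genes described here are 10 long noncoding RNAs of mouse embryonic stem (ES) cells: the nuclear RNAs Malat1, Neat1 and Kcnq1ot1 and the snoRNA hosts Gas5, Snhg1, Snhg3, Snhg5, Snhg6, Snhg8 and Snhg12. They were selected by their symbols, and all 10 were found among the 51826 genes of the deposited table. Total RNA came from v6.5 mouse ES cells, in 1 library labelled T29I and 1 library labelled WT. The title names the PRSS1 gene, which encodes a trypsinogen, and no other allele or treatment is given for either library. The labels also give both libraries the strain name NBA1-19349, and they do not say how many clones, passages or cultures each stands for. With 1 library of each genotype there is no replicate check: differences are between these 2 libraries, no p-value can be given, and genotype, clone, culture and library preparation cannot be told apart.

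Malat1 and Neat1 are transcribed from neighbouring genes and stay in the nucleus. Malat1 gathers in nuclear speckles, which store splicing factors, and Neat1 is the scaffold of paraspeckles, which retain certain RNAs and RNA-binding proteins. Kcnq1ot1 is transcribed from the paternal allele, antisense to Kcnq1, and silences neighbouring imprinted genes on that chromosome. The snoRNA hosts carry small nucleolar RNAs (snoRNAs) in their introns. SnoRNAs guide the chemical modification or processing of ribosomal and spliceosomal RNA. Once spliced, several of the host RNAs are degraded by nonsense-mediated decay, and Gas5 in particular accumulates when growth or translation is arrested.

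Malat1 and Neat1 lack an ordinary poly(A) tail at the processed end and are protected there by a triple helix, in which U-rich stretches wrap an A-rich tract. The segments that form it are printed because they are a sequence feature shared by both RNAs and because the kit keeps transcripts without a poly(A) tail. Both come from GENCODE M21 transcripts (build GRCm38), lie on the minus strand and are written 5′ to 3′ as DNA. Capitals mark TTTCTTTT, TTTTGCTTT and AAAAAGCAA.
Malat1, chr19:5795984-5796065: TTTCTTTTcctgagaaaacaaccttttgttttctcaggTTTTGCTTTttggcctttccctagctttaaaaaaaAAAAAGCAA
Neat1, chr19:5824710-5824797: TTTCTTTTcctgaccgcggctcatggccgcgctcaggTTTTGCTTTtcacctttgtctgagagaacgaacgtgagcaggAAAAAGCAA
The 3 motifs, in this order with at most 60 bases between neighbours and searched on the transcript strand, were found in transcripts of 2 of 55341 annotated genes, namely Malat1 and Neat1. The motifs are exact letters that both segments contain, so a match in these 2 genes was fixed in advance. Exact strings would also miss similar elements that differ by a letter, so the count is no measure of how rare such elements are. The Neat1 segment spans bases 20682 to 20769 of an annotated transcript of 20771 bases. In Malat1 it spans bases 6608 to 6689 of an annotated 6983, so more annotated sequence follows it there.

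A different feature was shared by 5 of the 7 snoRNA hosts, at their 5′ ends. Genes of the 5′-TOP class, which includes ribosomal protein genes, start transcription at a C within a run of pyrimidines. RefSeq (GRCm38.p6) gave 9 start regions for 8 of the 10 genes, of 300 bases each, and Neat1 and Snhg6 had none. In 5 of the 9, TATA began within 40 to 15 bases upstream of the annotated start and a run of at least 6 letters that were only C or T touched the window from 5 bases before to 20 bases after it. Across 32851 start regions of the same length, 5.91% held the TATA, 32.1% held the run and 2.15% held both. The search was on the transcribed strand, and its windows were set after the sequences had been seen. The 5 regions are shown from 40 bases before to 30 bases after the start, with capitals for TATA and the run.
Gas5, chr1:161035126-161035195, + strand: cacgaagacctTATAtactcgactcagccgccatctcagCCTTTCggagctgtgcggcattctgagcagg
Snhg1, chr19:8723447-8723516, + strand: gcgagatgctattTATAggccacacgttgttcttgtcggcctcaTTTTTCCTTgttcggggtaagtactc
Snhg5, chr9:88522868-88522937, - strand: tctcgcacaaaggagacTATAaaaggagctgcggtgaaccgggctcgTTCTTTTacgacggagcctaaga
Snhg8, chr3:123508307-123508376, - strand: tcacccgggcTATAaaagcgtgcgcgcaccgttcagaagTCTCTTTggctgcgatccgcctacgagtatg
Snhg12, chr4:132308638-132308707, + strand: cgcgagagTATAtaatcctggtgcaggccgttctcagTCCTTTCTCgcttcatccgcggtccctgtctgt
The start regions of Malat1, Kcnq1ot1 and Snhg3 and a second, more upstream start of Gas5 held neither. At the annotated start itself, only Gas5 and Snhg8 of the 5 had a C within the marked run. Snhg12 had a T there, and the runs of Snhg1 and Snhg5 began downstream of the start. A match describes letters in a window and does not show a start site in these cells, nor membership of the 5′-TOP class.

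The hosts contain 29 annotated snoRNA genes on their own strand, 10 in Gas5, 8 in Snhg1, 5 in Snhg12, 2 each in Snhg3 and Snhg5 and 1 each in Snhg6 and Snhg8. Snord80 in Gas5 and Snora16a in Snhg12 are each annotated as 2 overlapping genes, so there are fewer separate snoRNA places than genes. Of the 29 genes, 0 were listed above 0 TPM in either library. TPM is an abundance scaled by transcript length, and the values of each library sum to 1000000. The same held for all 1507 snoRNA, 1383 snRNA, 2202 miRNA and 562 miscellaneous small RNA genes of the table, so no level of a hosted snoRNA can be given. One of each class is shown as an example of what the hosts carry, with capitals for box C and box D of Snord47, from Gas5, and for the ACA box of Snora24, from Snhg8.
Snord47, chr1:161038082-161038158, + strand: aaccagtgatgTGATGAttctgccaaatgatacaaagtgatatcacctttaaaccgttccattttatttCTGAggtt
Snora24, chr3:123507937-123508066, - strand: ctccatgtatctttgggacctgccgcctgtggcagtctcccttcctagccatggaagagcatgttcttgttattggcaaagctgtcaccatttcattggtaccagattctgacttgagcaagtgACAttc

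The libraries differed widely across all genes, which bears on every value below. Depth, estimated from the steps in the TPM values, was 15281662 reads in the T29I library and 16910002 in the WT library. Ratios are T29I over WT on the log2(TPM + 1) scale, for the 12943 genes averaging at least 1 TPM, and a gene is called lower or higher where its ratio reaches 2-fold. By that rule 45.7% of genes were called lower in T29I cells and 9.97% higher. The median ratio of the 9375 genes averaging at least 5 TPM was -0.90, named the median shift below. Among protein-coding genes the ratio fell with transcript length and rose with GC content (Spearman's rho of -0.53 and 0.56 across genes), and a fit on both accounted for 44.9% of its variance. Prss1 was listed at 0 TPM in both libraries, so its level is no check of the genotype labels. The stem cell markers Pou5f1, Sox2 and Utf1 were abundant in both libraries, at 1454, 355 and 2459 TPM in T29I cells and 1722, 563 and 972 TPM in WT cells. The other 7 markers examined were each called lower as deposited, with Zfp42 at 23.3 TPM in T29I cells and 544 TPM in WT cells at the extreme. Relative to the median shift, 4 of the 10 markers were called lower and 1 higher. After adjustment with the fit on length and GC content, 5 were called lower and 0 higher. Lin28a and Sall4 were called on neither of these 2 scales.

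Of the 9 RNAs with a measured level, 8 were called lower in T29I cells, against 45.7% of all genes, and 0 higher, against 9.97%. The exception was Snhg3, which was within counting error of its WT level. The median log2 ratio of the 9 was -1.93, and that of all tested genes was -0.84. Together the 10 genes summed to 289 TPM in T29I cells and 1146 TPM in WT cells. That was 5.72% of the TPM of 8612 long noncoding genes in the T29I library and 9.48% in the WT library. Across the 623 long noncoding genes averaging at least 1 TPM, the median log2 ratio was -1.46, and 396 of the 623 were called lower and 61 higher. The filter admits a gene through a high level in 1 library alone. More long noncoding genes were above 0 TPM in WT (2423) than in T29I (1538), so the count of 396 may lean lower for that reason. In bulk RNA, fewer cells that carry an RNA and less of it per cell cannot be told apart.

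**Figure D1:**
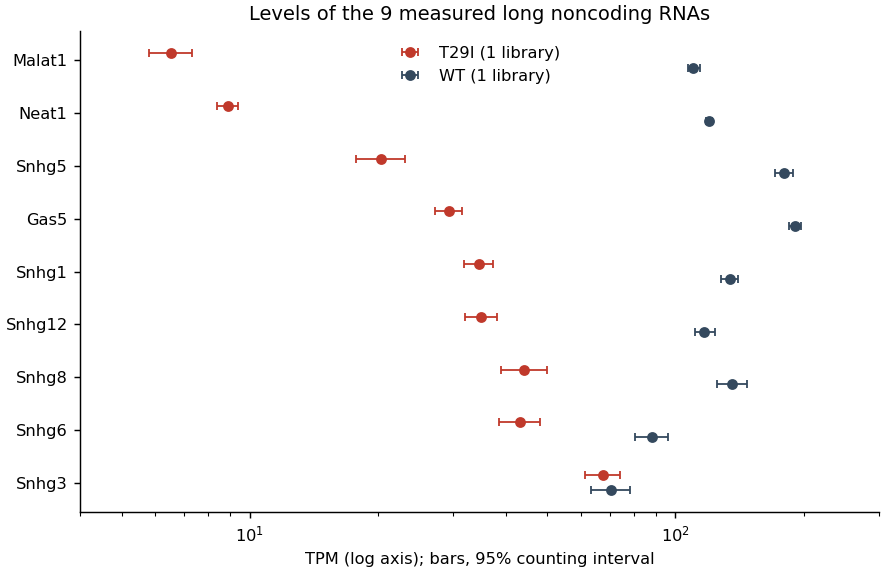
TPM of the 9 measured RNAs on a log axis, T29I above WT in each row, with 95% counting intervals; each point is 1 library. The points lie far apart for Malat1 (6.52 TPM in T29I, 110 TPM in WT) and overlap in their intervals for Snhg3 (67.5 TPM in T29I, 70.5 TPM in WT).

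Malat1 and Neat1 had the lowest ratios. Malat1 (ENSMUSG00000092341, chromosome 19, 5795690 to 5802672, - strand in GENCODE M21) was at 6.52 TPM in T29I cells (95% counting interval 5.81 to 7.31) and 110 TPM in WT cells (107 to 114). It was 16.9-fold lower in T29I cells (15 to 19), and among long noncoding genes it ranked 96 in the T29I library and 17 in the WT library. Neat1 (ENSMUSG00000092274, chromosome 19, 5824708 to 5845478, - strand) was at 8.87 TPM in T29I cells (8.38 to 9.38) and 120 TPM in WT cells (118 to 122), 13.5-fold lower (12.7 to 14.3). Neat1 had the higher level of the 2 in both libraries, and their intervals did not overlap. The intervals here and below cover counting error only, and the folds are ratios of TPM without a pseudocount. For Malat1, Neat1, Snhg8 and Snhg12 the intervals rest on read estimates that did not come out as whole numbers. The matched log2(TPM + 1) ratios were -3.88 for Malat1 and -3.61 for Neat1.

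Both have a long annotated transcript made of a single exon, and long transcripts had low ratios in general. The 1777 protein-coding genes within 2-fold of the Malat1 length and 5 percentage points of its GC content had a median log2 ratio of -2.02, with quartiles of -2.71 and -1.35. Malat1 at -3.88 lay below both. The 84 protein-coding genes like Neat1 in length and GC content had a median of -3.13, with quartiles of -3.86 and -2.56, and Neat1 at -3.61 lay between them. After adjustment for length and GC content the log2 ratio was -1.56 for Malat1 and 0.56 for Neat1. The 0.56 is a distance from a fitted curve, whereas Neat1 lay below the median of the 84 genes like it, so its sign is not settled. The adjusted ratio of Neat1 depends on which transcript sets its length: with the median annotated length in place of the longest, a setting chosen after seeing the data, it was -2.26, and that of Malat1 was -2.38. Whether length itself or another property of long transcripts moved the ratios was not tested. The genes closest to Malat1 in ratio, among 1057 within 2-fold of its length and mean TPM, were Smc1a, a cohesin subunit, at 7.22 TPM in T29I and 121 TPM in WT, the kinase gene Wnk1 (4.06 TPM in T29I and 73.3 TPM in WT) and Washc4 (3.43 TPM in T29I and 63.8 TPM in WT). Their ratios, from -3.89 to -3.87, rest on 2 libraries.

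**Figure D2:**
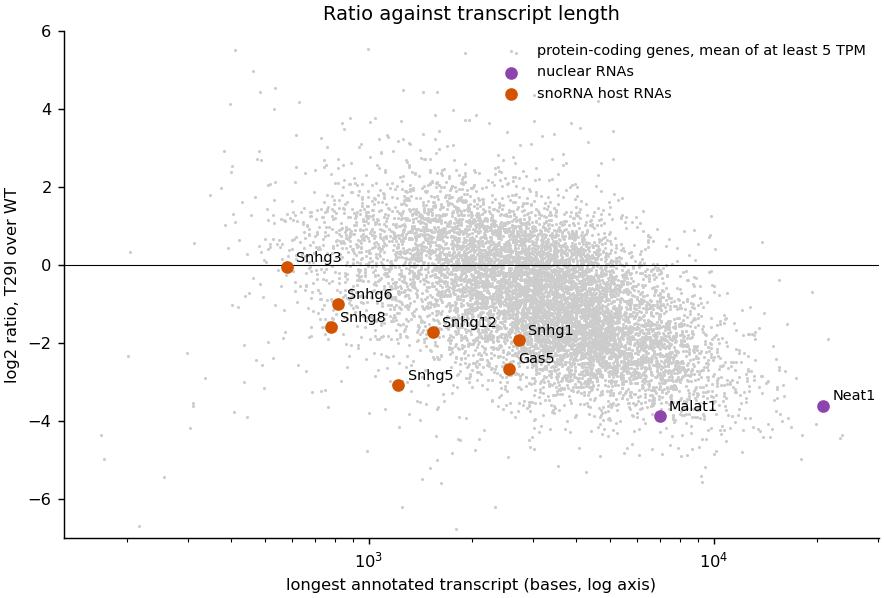
Log2 ratio of T29I over WT against the longest annotated transcript (log axis), with protein-coding genes of at least 5 TPM in grey, nuclear RNAs in purple and snoRNA hosts in orange. Neat1 (20771 bases, -3.61) sits among the longest genes, and Snhg5 (1221 bases, -3.08) lies below the median of -0.90 for genes like it in length and GC content.

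Kcnq1ot1 (ENSMUSG00000101609, chromosome 7, 143203458 to 143296549, - strand) was listed at 0 TPM in both libraries, as was Kcnq1, the potassium channel gene it overlaps in antisense. Kcnq1ot1 is annotated as a single exon of 93092 bases. Of 92 genes with a transcript of at least 15000 bases, 17 were listed at 0 in both libraries. A listed 0 in a TPM table can come from masking or mapping as well as from a silent gene, and no fold is given.

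Imprinted and other genes around Kcnq1ot1 had ratios on both sides of 0, and 10 of 16 averaged at least 1 TPM. Of these, 5 were called higher in T29I cells, against 9.97% of all genes, and 2 lower, against 45.7%. The list median was 0.99, against -0.84 for all tested genes. The 5 called higher as deposited were Cdkn1c, Phlda2, Ascl2, Slc22a18 and Th. Kcnq1ot1 was listed at 0 TPM in both libraries, and whether it bears on any of these ratios was not tested. Cdkn1c, an inhibitor of cyclin-dependent kinases, was at 103 TPM in T29I and 19.2 TPM in WT (log2 ratio 2.37, and 1.64 after adjustment). Phlda2, a growth restrainer of the placenta, was at 328 TPM in T29I and 93.1 TPM in WT (1.80, and 1.04 after adjustment). Ascl2, a trophoblast transcription factor, was at 32 TPM in T29I and 2.02 TPM in WT (3.45, and 2.55 after adjustment), and the transporter gene Slc22a18 was at 4.28 TPM in T29I and 1.13 TPM in WT (1.31, and 0.75 after adjustment). Th, which encodes tyrosine hydroxylase, was at 1.92 TPM in T29I and 0.244 TPM in WT, an estimated 30 reads in T29I and 3 in WT. Th passed the filter through its T29I level alone and adds to the count called higher for that reason, as deposited and after adjustment. The sterol reductase gene Dhcr7 and Tssc4 had ratios of 0.59 and 0.75, and the tetraspanin gene Cd81 had -0.51. Lower were Nap1l4, a histone chaperone gene, at 40.1 TPM in T29I and 151 TPM in WT, and Cars, a cysteinyl-tRNA synthetase gene, at 30.1 TPM in T29I and 73.0 TPM in WT. After adjustment 5 of the 10 were still called higher, with Dhcr7 at 1.08 in place of Slc22a18, and 1, Nap1l4, was called lower. The adjusted shares over all genes were 17.6% higher and 15.5% lower.

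The 7 snoRNA hosts formed a graded series, from Snhg5 at the lower end to Snhg3, which did not differ beyond counting error. In T29I cells their levels lay between 20.3 TPM for Snhg5 and 67.5 TPM for Snhg3, and in WT cells between 70.5 TPM for Snhg3 and 191 TPM for Gas5. Snhg5 was the lowest of the 7 in T29I cells and, with an interval overlapping that of Gas5, among the highest in WT cells, while Snhg3 was the highest in T29I cells and the lowest in WT cells.

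Snhg5 (ENSMUSG00000097195, chromosome 9, 88521050 to 88522929, - strand), host of Snord50a and Snord50b, was at 20.3 TPM in T29I cells (17.8 to 23.1) and 180 TPM in WT cells (171 to 189). It was 8.85-fold lower (7.71 to 10.2), a log2 ratio of -3.08, while the 917 protein-coding genes like it in length and GC content had a median of -0.90. Gas5 (ENSMUSG00000053332, chromosome 1, 161034422 to 161038539, + strand), a growth-arrest RNA that can bind the glucocorticoid receptor, was at 29.4 TPM in T29I cells (27.3 to 31.6) and 191 TPM in WT cells (185 to 197), 6.49-fold lower (6.0 to 7.04). Its log2 ratio of -2.66 compares with a median of -1.57 for 2113 protein-coding genes like it. After adjustment the ratios were -2.31 for Snhg5 and -1.34 for Gas5. The genes nearest to Gas5 in ratio, among 1417 within 2-fold of its length and mean TPM, were Dnajc7, a co-chaperone gene, at 29 TPM in T29I and 189 TPM in WT, the nucleolar gene Wdr75 (16.4 TPM in T29I and 107 TPM in WT) and Cdv3 (51.9 TPM in T29I and 326 TPM in WT).

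Snhg1, Snhg12 and Snhg8 were each between 3- and 4-fold lower in T29I cells. Snhg1 (ENSMUSG00000108414, chromosome 19, 8723475 to 8726443, + strand), which carries Snord22 and 7 other snoRNA genes, was at 34.5 TPM in T29I and 134 TPM in WT, 3.89-fold lower (3.56 to 4.24). Snhg12 (ENSMUSG00000086290, chromosome 4, 132308623 to 132311024, + strand), host of Snord99 and of H/ACA snoRNAs such as Snora44 and Snora61, was at 35.0 TPM in T29I and 117 TPM in WT, 3.35-fold lower (3.04 to 3.71). Snhg8 (ENSMUSG00000104960, chromosome 3, 123507552 to 123508404, - strand), host of Snora24, was at 44.1 TPM in T29I and 136 TPM in WT, 3.08-fold lower (2.65 to 3.58). The counting intervals of Snhg1 and Snhg12 overlapped in T29I cells, as did those of Snhg8 and Snhg6 there and of Snhg1 and Snhg8 in WT cells, so these pairs cannot be ordered. The log2 ratios were -1.93, -1.72 and -1.60 in the order Snhg1, Snhg12, Snhg8, and -0.46, -1.12 and -0.90 after adjustment.

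Snhg6 and Snhg3 stood apart at the other end. Snhg6 (ENSMUSG00000098234, chromosome 1, 9941959 to 9944118, - strand), host of Snord87, was at 43.2 TPM in T29I cells (38.6 to 48.1) and 87.9 TPM in WT cells (80.5 to 95.8). At 2.04-fold lower (1.77 to 2.34) it lay just past the 2-fold line, with a log2 ratio of -1.01, and at 0.11 after adjustment. Snhg3 (ENSMUSG00000085241, chromosome 4, 132348014 to 132353686, - strand), host of Snora73a and Snora73b, was at 67.5 TPM in T29I cells (61.4 to 74.2) and 70.5 TPM in WT cells (63.4 to 78.2). The T29I to WT ratio was 0.958 (0.831 to 1.10), a difference not detectable at this depth, and the log2 ratio was 0.83 relative to the median shift and 1.05 after adjustment. The value of Snhg3 is uncertain, because it overlaps Rcc1, which encodes a chromatin-bound exchange factor, on its own strand and Gm17300, a noncoding gene, on the other. Gm17300 was at 10.9 TPM in T29I and 89.4 TPM in WT. The sources used here do not say whether the authors' counting used strand. In estimated reads, Snhg3 and Gm17300 together came to 550 in T29I cells and 1070 in WT cells, and Snhg3 and Rcc1 together to 3571 in T29I cells and 3520 in WT cells.

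Relative to the median shift, 5 of the 9 RNAs (Malat1, Neat1, Snhg5, Gas5 and Snhg1) were called lower, against 22.2% of all genes, and 0 higher, against 26.0%. Snhg1 was only just past the line, at -1.03. After adjustment for length and GC content 4 were called lower (Snhg5, Malat1, Gas5 and Snhg12), against 15.5% of 12920 genes, and 1 higher (Snhg3), against 17.6%. Of the 623 long noncoding genes averaging at least 1 TPM, 202 were called lower and 119 higher relative to the median shift. After adjustment, 275 of the 623 were called lower and 87 higher, with a median of -0.83 beside -0.90 for the 9 RNAs. Lower adjusted ratios were thus not particular to the 9, and the fit used protein-coding genes only. With the median transcript length 4 of the 9 RNAs were again called lower, but Neat1 took the place of Snhg12, which was at -0.68. Snhg5, Malat1 and Gas5 were called lower on all 3 scales and with either length.

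**Figure D3:**
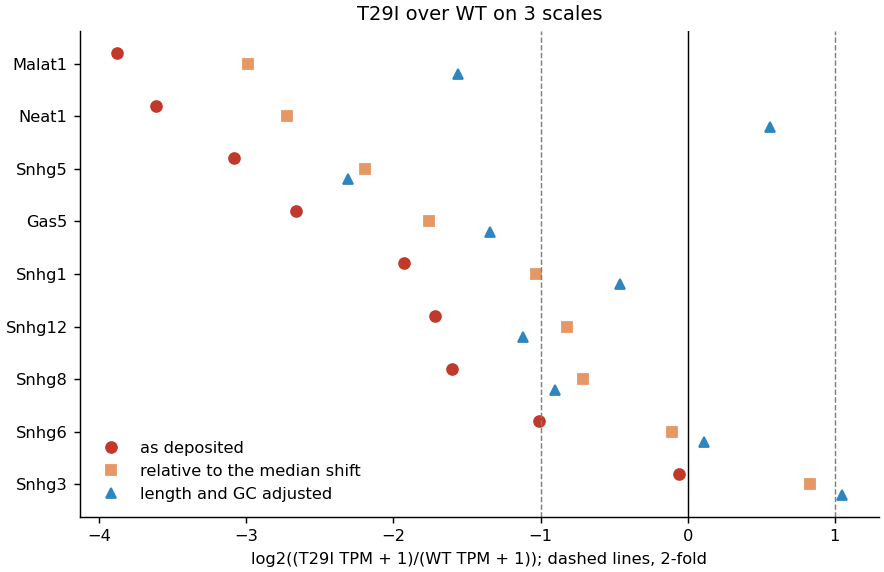
Log2 ratio of T29I over WT for the 9 RNAs as deposited (circles), relative to the median shift (squares) and after length and GC adjustment (triangles), with dashed lines at 2-fold. Snhg5, Malat1 and Gas5 stay left of the -1 line on each scale, whereas Neat1 lies at -3.61 as deposited and 0.56 after this adjustment, which uses the longest transcript (-2.26 with the median transcript length, not plotted).

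Neighbouring protein-coding genes had ratios on both sides of 0. Of 8 such genes within 10 kb that averaged at least 1 TPM, 4 had a higher and 4 a lower TPM in T29I cells. Of the 8, 2 were called lower, against 45.7% of all genes. Slc3a2, an amino acid transporter subunit gene that starts 106 bases from the start of Snhg1 on the opposite strand, was at 228 TPM in T29I and 154 TPM in WT. Wdr74, a ribosome assembly gene on the other side of Snhg1, was at 424 TPM in T29I and 363 TPM in WT, a log2 ratio of 0.22 that was -0.18 after adjustment. Frmd8, next to Neat1, was at 43.2 TPM in T29I and 21.7 TPM in WT, and Trnau1ap, a gene of selenocysteine incorporation next to Snhg12, was at 33.3 TPM in T29I and 23.1 TPM in WT. By contrast Zbtb37, a zinc finger gene whose 5′ end overlaps that of Gas5 on the other strand, was at 0.169 TPM in T29I and 6.53 TPM in WT, with ratios of -2.69 as deposited and 1.39 after adjustment. Zbtb37, 1 of the 2 called lower, passed the filter through its WT level alone. Whether the counting used strand where it overlaps Gas5 is not known. Near Snhg3, Phactr4 was at 8.15 TPM in T29I and 20.8 TPM in WT and Rcc1 at 123 TPM in T29I and 158 TPM in WT.

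**Figure D4:**
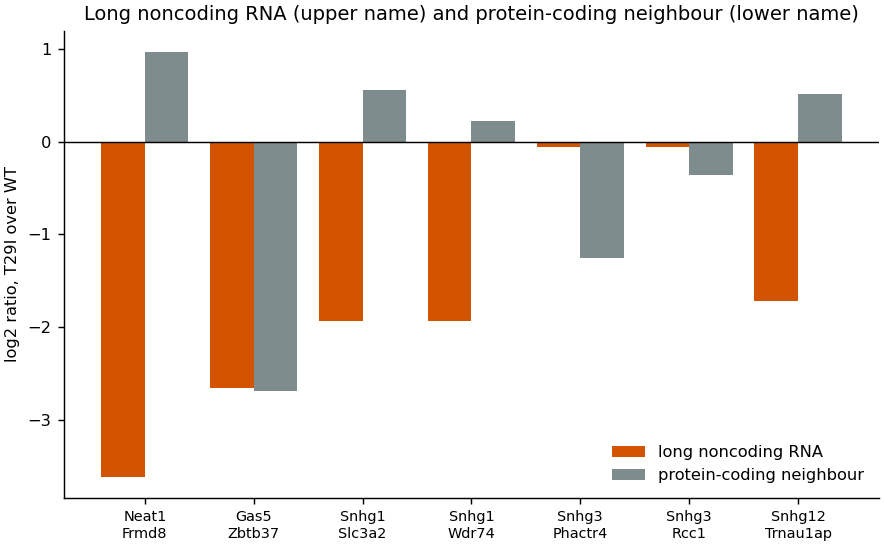
Log2 ratio of T29I over WT for each long noncoding RNA (orange, upper name) and a protein-coding neighbour (grey, lower name), for 7 of the 8 neighbours. Frmd8, Slc3a2, Wdr74 and Trnau1ap lie above 0 beside RNAs at -1.72 or lower. Zbtb37 and Gas5 lie at -2.69 and -2.66, and were at 1.39 and -1.34 after adjustment (not plotted).

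Other snoRNA-host and Snhg-named genes, listed together with the microRNA hosts Mir17hg and Mir22hg, had ratios on both sides of 0. Of 19 listed, 13 were measured, and 9 of these were called lower and 2 higher in T29I cells, against 45.7% and 9.97% of all genes. The median log2 ratio was -1.91, and -1.23 after adjustment. Snhg11, at 0.266 TPM in T29I and 7.57 TPM in WT, passed the filter through its WT level alone. The lowest were Mir17hg, host of the miR-17 cluster, at 2.74 TPM in T29I and 39.4 TPM in WT, and Snhg4 at 3.18 TPM in T29I and 42.0 TPM in WT. Epb41l4aos was the most abundant, at 41.2 TPM in T29I and 140 TPM in WT. The 2 higher genes were Snhg14, the host of the Prader-Willi region snoRNAs, at 12.7 TPM in T29I and 5.44 TPM in WT, and Snhg18 at 5.91 TPM in T29I and 2.20 TPM in WT. Among other nuclear and regulatory RNAs, 21 of 44 were measured, of which 14 were called lower and 2 higher, against 45.7% and 9.97% of all genes. Their median was -1.87, and -0.93 after adjustment. Firre, Mir124a-1hg, Tsix, Miat, Pvt1, Platr20 and Halr1 were below 1 TPM in T29I cells and passed the filter through their WT level alone. The count and median lean lower for that reason. Firre, an X-linked RNA that binds chromatin, was at 0.367 TPM in T29I and 26.7 TPM in WT, and Mir124a-1hg at 0.0945 TPM in T29I and 14.7 TPM in WT. At the upper end Platr3 was at 27.2 TPM in T29I and 11.7 TPM in WT, and the imprinted RNA H19 was at 967 TPM in T29I and 8.61 TPM in WT.

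Most genes for paraspeckle proteins, the partners of Neat1, were lower as deposited. Of 27, 22 were called lower and 0 higher, against 45.7% and 9.97% of all genes, with a median of -1.70. After adjustment 7 were called lower and 4 higher, against 15.5% and 17.6% of all genes, with a median of -0.20. Taf15 was at 24.2 TPM in T29I and 192 TPM in WT and Hnrnph3 at 8.26 TPM in T29I and 51.4 TPM in WT. Hnrnpa1 was the most abundant, at 1036 TPM in T29I and 2548 TPM in WT, while Nudt21 (69.2 TPM in T29I and 86.3 TPM in WT) and Rbm14 (111 TPM in T29I and 103 TPM in WT) had the highest ratios. For nuclear speckle proteins and other Malat1 partners, 15 of 29 were called lower, near the 45.7% of all genes, and 1 higher, against 9.97%. The median was -1.10, and -0.17 after adjustment. The lowest were the large speckle scaffolds Son, at 7.84 TPM in T29I and 114 TPM in WT, and Srrm2, at 24.4 TPM in T29I and 318 TPM in WT. U2af1, a splicing factor gene, was the most abundant, at 624 TPM in T29I and 843 TPM in WT. Pop7, a subunit of RNase P, the enzyme that cuts the Malat1 3′ end, was at 94.5 TPM in T29I and 40.5 TPM in WT, and the splicing activator Rnps1 was at 450 TPM in T29I and 382 TPM in WT.

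Genes for snoRNP proteins, which assemble on the snoRNAs that the hosts carry, had ratios on both sides of 0. Of 19 measured, 8 were called lower, close to the 45.7% of all genes, and 1 higher, against 9.97%. The median was -0.46, and -0.25 after adjustment. Dkc1, the pseudouridine synthase of H/ACA particles, was at 19.2 TPM in T29I and 243 TPM in WT, and Nop58, a box C/D core protein, at 12.9 TPM in T29I and 132 TPM in WT, although the adjusted ratio of Nop58 was -0.42. In contrast Nhp2, another H/ACA core protein and the most abundant of the list, was at 943 TPM in T29I and 560 TPM in WT, and the assembly factor Znhit3 at 93.4 TPM in T29I and 43.5 TPM in WT. Nonsense-mediated decay factors numbered 17, of which 11 were called lower and 0 higher, against 45.7% and 9.97% of all genes. Their median was -1.21, and -0.04 after adjustment. The kinase gene Smg1 was at 1.62 TPM in T29I and 36.2 TPM in WT, with an adjusted ratio of -0.21 for the long Smg1. Eif4a3, the most abundant, was at 492 TPM in T29I and 294 TPM in WT, and Dhx34 at 17.4 TPM in T29I and 8.84 TPM in WT.

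**Figure D5:**
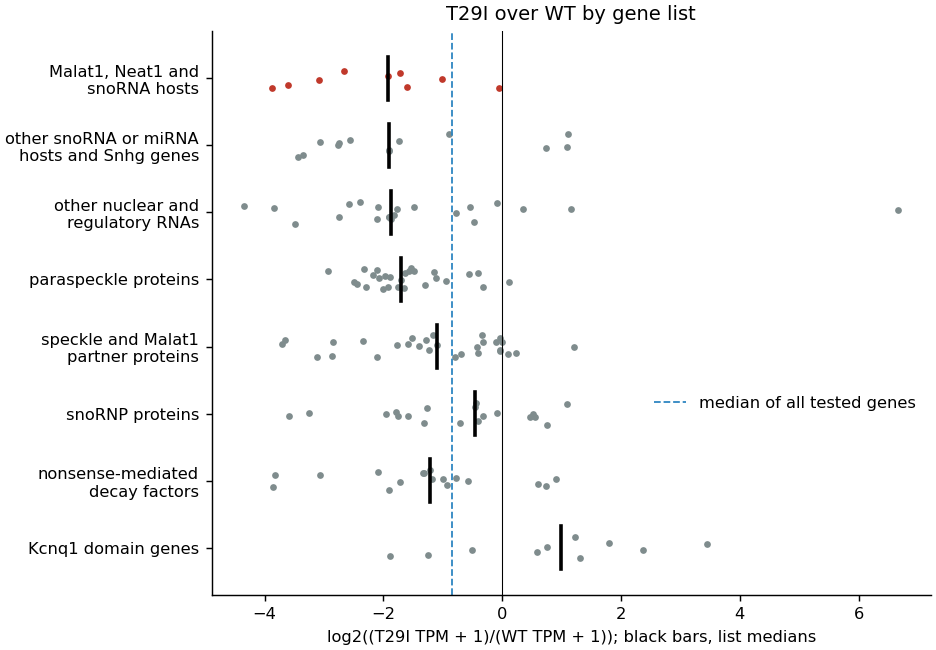
Log2 ratio of T29I over WT for each measured gene (points) by list, with list medians as black bars and the median of all tested genes (-0.84) as a dashed line. The medians of the 3 noncoding lists lie at -1.93, -1.91 and -1.87, and that of the Kcnq1 domain genes at 0.99.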

How the data were processed

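The authors deposited 1 table of TPM values for the 2 libraries; the labels' protocols name Isogen for extraction and an Illumina TruSeq stranded kit with Ribo-Zero depletion for total RNA. No source used here names the aligner, counter, build or annotation. Samples were grouped by genotype label. GENCODE M21 (GRCm38) held 51633 of the 51826 gene identifiers, and 193 had no match. One read's worth of TPM was read from the commonest step of TPM times merged exon length. This gave whole numbers, within 0.05, for 79.9% of values in T29I and 81.0% in WT, and for 5 of the 9 measured RNAs. For Malat1, Neat1, Snhg8 and Snhg12 neither library gave a whole number. Their reads are estimates of unknown error, and their counting intervals rest on them. Counting intervals are 95% exact Poisson intervals, and those of ratios are exact binomial intervals.

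Ratios are log2((T29I TPM + 1)/(WT TPM + 1)), which understates differences of low genes. Genes had to average at least 1 TPM, and 2-fold was the call. For the adjustment, ratios were regressed on length (log2, longest transcript) and GC content, with squares and their product, over 9100 protein-coding genes averaging at least 5 TPM, and the residual was kept; this also removes true differences that follow either. No count model was fitted, since 1 library per group leaves no spread. Calling and read estimation were tested on simulated data. These were drawn from the WT levels with the same exon lengths and with no length or GC trend. That test therefore checks the code and does not cover such trends or differences between cultures. The 10 RNAs and the lists were chosen with earlier results of these data known. Named genes are all 10, the 2 highest, 2 lowest and most abundant of each list, all measured Kcnq1 domain genes and neighbours within 10 kb; 2 genes that this rule names are not reported here. Python 3.11.15, pandas 2.3.3, numpy 2.4.6, scipy 1.17.1 and matplotlib 3.10.9 were used.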

Additional observations from a re-analysis of the deposited data

How the results depend on the processing

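A pseudocount of 0.1 or 5, no filter, or a mean of at least 5 TPM left the ratios of all 9 RNAs below 0. These settings cannot change the sign of a ratio or remove any of the 9, so that was fixed in advance. Snhg3 was at -0.06 in each and did not differ beyond counting error. The count at least 2-fold lower was 7 or 8. Rescaling without the 20 most abundant genes gave 7, with Snhg3 at 0.12. Relative to the median shift the count was 5, with Snhg3 at 0.83, and all genes counted 2867 lower and 3371 higher against 5909 lower and 1290 higher as deposited. After length and GC adjustment it was 4, with 1 RNA higher and a median of -0.90, and all genes counted 2003 lower and 2268 higher. With the median annotated transcript length in that adjustment, chosen after seeing the data, it was 4, with Neat1 called and Snhg12 not, 1 higher and a median of -0.68, and all genes counted 2162 lower and 2504 higher. A pseudocount of 5 gave 749 genes higher. The sign of 3 RNAs turned on adjustment, to 0.56 for Neat1, 0.11 for Snhg6 and 1.05 for Snhg3; the values were -2.26 for Neat1, 0.58 for Snhg6 and 1.51 for Snhg3 with the median transcript length. The cause of these changes was not tested. The lowest and highest log2 ratios over all settings were -3.14 and -1.82 for Snhg5, -4.06 and -1.56 for Malat1, and -2.69 and -1.15 for Gas5. No paired analysis was possible because there is 1 library per genotype, and no library could be left out.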
